A study of Mus musculus with 12 samples.

Results

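Transcripts of 10 genes for the receptors and enzymes of the endocannabinoid system were examined in mouse scars. The members were the count rows whose symbols were Cnr1, Cnr2, Gpr55, Trpv1, Napepld, Dagla, Daglb, Faah, Mgll and Abhd6. All 10 were found among the 35976 genes listed, and all 10 passed the filter on low counts that left 18853 genes for testing. Endocannabinoids are lipid messengers that cells cut from membrane phospholipids on demand. Anandamide is released from its precursor by the phospholipase that Napepld encodes and is hydrolysed by fatty acid amide hydrolase, the product of Faah. 2-arachidonoylglycerol is made by the diacylglycerol lipases (Dagla, Daglb) and broken down mainly by monoacylglycerol lipase (Mgll), with a smaller part for Abhd6. Both lipids act on the G protein-coupled receptors CB1 (Cnr1) and CB2 (Cnr2). Anandamide also opens TRPV1, the heat- and capsaicin-gated cation channel, and Gpr55 encodes a receptor for lysophosphatidylinositol that some cannabinoids bind. In skin, this system is known from work on itch and pain, sebum production, hair growth and inflammation.

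The scars came from 4 groups of 3 male mice on a C57BL/6J background, 8 to 12 weeks of age at surgery. Every mouse received a 1.5 cm split wound on the back and, after 6 days, a plastic device. The device drew the wound apart by 1 mm per day to 8 mm in all in the traction groups, and it was worn without stretching in the sham groups. WTSH and WTTR are the sham and traction scars of Tem1WT/WT mice, and lacZSH and lacZTR those of Tem1lacZ/lacZ mice. In Tem1lacZ/lacZ mice a lacZ reporter takes the place of the only exon of Tem1 (Cd248) in every cell of the body, so the genotype is not specific to fibroblasts. RNA of a whole piece of scar was measured as poly(A) RNA-seq, with 1 library for each mouse.

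Each library held 41536788 to 64644293 gene counts. Tem1 itself, listed as Cd248, had 3883 to 16413 counts in the 6 Tem1WT/WT libraries and 0 to 13 in the 6 Tem1lacZ/lacZ libraries, as the labels give it. Fibroblast markers (6 genes) summed to 15364 to 86055 CPM (counts scaled to library size by the TMM method) and epidermal keratinocyte markers (5 genes) to 8956 to 39984 CPM, so both sets were detected in every library. WTTR replicate 1 stood apart. Its 6 neutrophil markers summed to 6722 CPM, against 586 and 280 CPM in the other WTTR libraries and at most 517 CPM elsewhere. Krt10, a keratinocyte marker, was at 145 CPM there, against 2058 and 3641 CPM in the other WTTR libraries and at least 1297 CPM elsewhere. Within WTTR, replicate 1 had the lowest Krt1 and Krt10 and the highest Krt5, Krt14 and Trp63. The 8 adipocyte markers ranged from 27.3 to 4592 CPM and the 6 skeletal muscle markers from 189 to 9073 CPM between libraries. Beside differences that involve WTTR, the value without replicate 1 is given below where it was over 1.5 times smaller or changed sign.

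Traction lowered the 2 genes of anandamide turnover, Faah and Napepld, in Tem1WT/WT scars. Faah fell to 0.415 times and Napepld to 0.576 times the sham level, and no other member passed the threshold in any comparison of one group with another. A gene was called where the adjusted p of edgeR's quasi-likelihood test, corrected by Benjamini-Hochberg over all 18853 genes, was under 0.05. The 2 members called, both lower, were 2 of 10, against 9.15% of all genes tested called in that comparison and 3.54% called lower. In bulk tissue, fewer cells of a type and less RNA per cell cannot be told apart. Both adjusted p-values lay close to the threshold, and in most fits that left out 1 library the calls were lost.

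**Figure D1:**
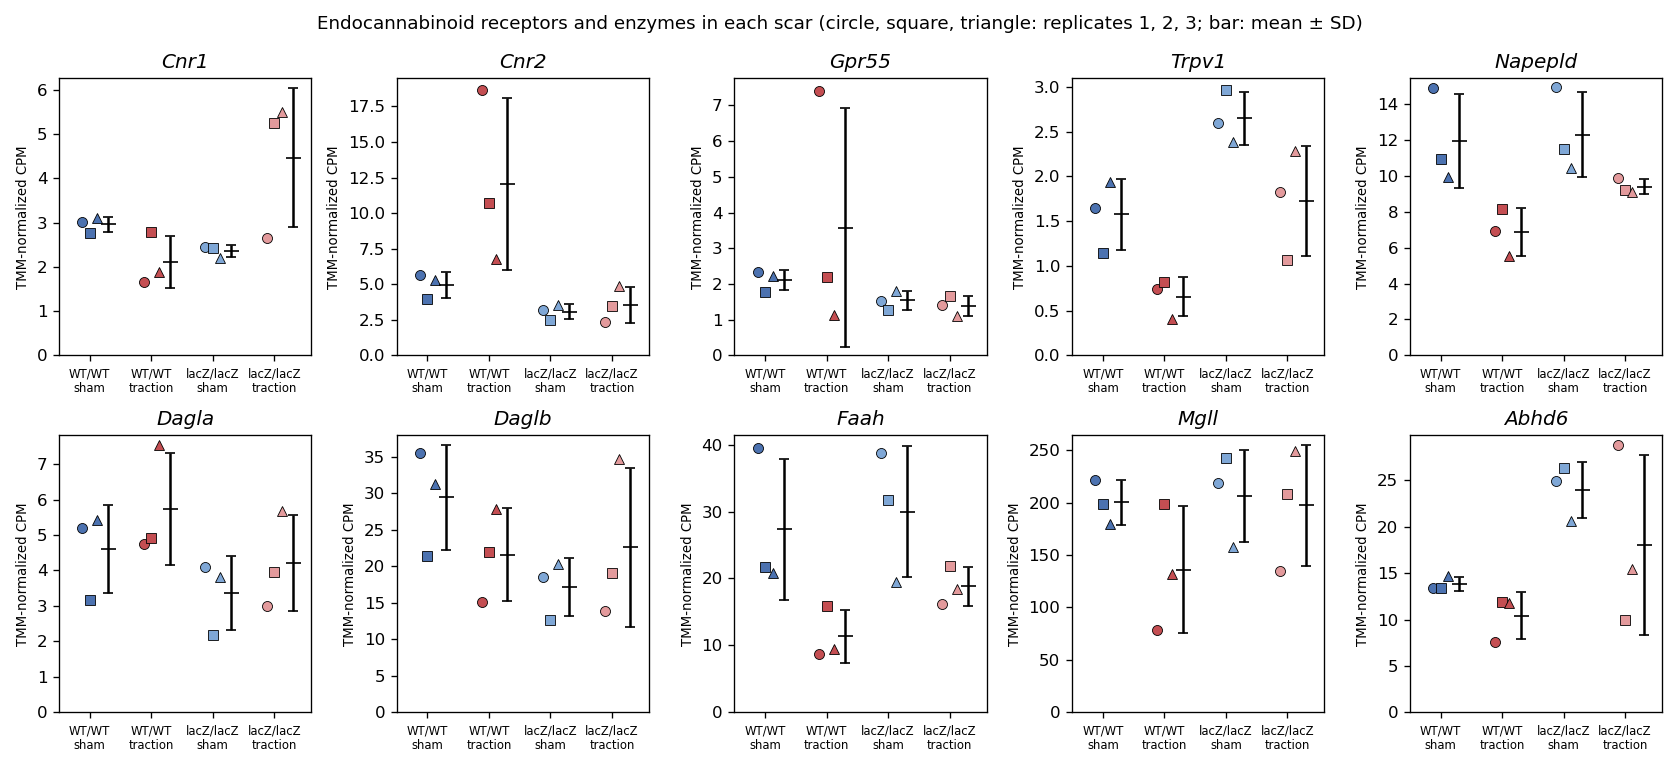
TMM-normalized CPM (vertical axes, linear from 0) of the 10 genes in each of the 12 scars, in 4 groups of 3 mice, with circle, square and triangle for replicates 1, 2 and 3 and bars for mean ± SD. Faah and Napepld lay lower in all 3 WTTR scars than in every WTSH scar, and Cnr2 reached 18.7 CPM in WTTR replicate 1.

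Levels are compared between genes per kilobase of the union of their exons in GENCODE vM21, since longer transcripts collect more reads. Averaged over the 12 libraries, Mgll was the most abundant member at 36.4 ± 9.98 CPM per kb (SD, n = 12), and Abhd6 followed at 7.01 ± 2.92 CPM per kb. Mgll exceeded Abhd6, and Abhd6 exceeded Faah, in 12 of 12 libraries. Faah (2.79 ± 1.28), Napepld (2.56 ± 0.707) and Daglb (2.37 ± 0.826 CPM per kb) came next and were not separated beyond their spread, with Faah above Napepld in 7 of 12 libraries and Napepld above Daglb in 8 of 12. Cnr2 followed at 1.48 ± 1.16 CPM per kb and was below Daglb in 10 of 12 libraries. Dagla (0.779 ± 0.249), Gpr55 (0.579 ± 0.458), Cnr1 (0.461 ± 0.186) and Trpv1 (0.448 ± 0.222 CPM per kb) were lowest. Cnr2 was above Dagla in 12 of 12 libraries and Dagla above Gpr55 in 11, while Gpr55 against Cnr1 (8 of 12) and Cnr1 against Trpv1 (7 of 12) were not separated. The enzymes that break down 2-arachidonoylglycerol thus ranked above every receptor on this scale. Trpv1 rested on 20 to 125 counts in a library, Gpr55 on 54 to 311 and Cnr1 on 70 to 291, so counting error weighs most on these receptors. Mgll had 3290 to 13716 counts.

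Among the receptors, Cnr2 encodes CB2, which is best known from cells of the immune system. In replicates 1, 2 and 3, it stood at 5.62, 3.93 and 5.32 CPM in WTSH, at 18.7, 10.7 and 6.76 CPM in WTTR, at 3.17, 2.52 and 3.57 CPM in lacZSH, and at 2.37, 3.45 and 4.85 CPM in lacZTR. All 3 WTTR scars were above all other 9 libraries, and within WTTR replicate 1 was the highest. The log2 difference between WTTR and WTSH was 1.28 (SE 0.37), or 2.43-fold, and missed the threshold with an adjusted p of 0.0533 in edgeR. Without WTTR replicate 1 it was 0.80 (adjusted p = 0.164 in edgeR), and without WTTR replicate 3 it was 1.57 and was called (adjusted p = 0.043). Between lacZTR and WTTR the log2 difference of Cnr2 was -1.76 (SE 0.38, adjusted p = 0.0845 in edgeR), without overlap between the groups. Neutrophil markers had the order of Cnr2 within WTTR and lacZSH and the opposite order within WTSH and lacZTR. Their summed level in WTTR was 6722, 586 and 280 CPM in replicates 1, 2 and 3, in the order of Cnr2, and in lacZTR it was 517, 249 and 236 CPM, in the opposite order. In WTSH it was 31.6, 88.4 and 83.6 CPM, again opposite, and in lacZSH 174, 144 and 184 CPM, in the order of Cnr2. The neutrophil sum was thus higher in lacZSH than in WTSH, while Cnr2 was lower without overlap. Of the 6 neutrophil markers 5 were tested, and 4 were called higher in WTTR than in WTSH, or 1 without WTTR replicate 1. Ly6g, the defining marker, was at 0 in 7 of 12 libraries and in none of WTTR. The 6 macrophage markers, none of them called, summed to 1421 to 2138 CPM in WTSH and 2026 to 2437 CPM in WTTR. Over the 12 libraries, which share the 4 groups, the Spearman rho of Cnr2 was 0.24 with the neutrophil sum and 0.64 with the macrophage sum, as a description. It was also 0.64 with the fibroblast sum, 0.62 with the endothelial sum and 0.54 with the B lymphocyte sum. With the sebaceous gland sum it was -0.81, the strongest of the 14 lists. The Pearson r of Cnr2 was 0.58 with the neutrophil sum and 0.66 with the macrophage sum. It was 0.6 with the fibroblast, 0.71 with the endothelial, 0.6 with the B lymphocyte and -0.79 with the sebaceous gland sum. The part of any of these cell types in the level of Cnr2 was not tested.

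Gpr55 showed no separation of the groups. It stood at 2.32, 1.78 and 2.23 CPM in WTSH, at 7.40, 2.21 and 1.13 CPM in WTTR, at 1.52, 1.28 and 1.82 CPM in lacZSH, and at 1.40, 1.66 and 1.09 CPM in lacZTR. WTTR replicate 1 was far above the rest, and WTTR replicate 3 was among the lowest. The log2 difference under traction in Tem1WT/WT scars was 0.76 (SE 0.54, adjusted p = 0.359 in edgeR) and became -0.35 without WTTR replicate 1. Between lacZTR and WTTR it was -1.37 (adjusted p = 0.154 in edgeR), and -0.24 (adjusted p = 0.707) without that library. The same library had the highest neutrophil sum and the highest T lymphocyte marker sum, at 44.4 CPM against 4.25 to 28.3 CPM in the other 11, and the part of these cells in the Gpr55 level was not tested. The gene span of Gpr55, introns included, shares 2307 bases with that of 4933407L21Rik on the opposite strand. Whether their exons overlap was not examined, and whether the counting used the strand is not given in the sources used here.

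Cnr1, which encodes CB1, had estimates of opposite sign under traction in the 2 genotypes, and neither passed the threshold. WTSH had 3.02, 2.76 and 3.10 CPM and WTTR had 1.67, 2.78 and 1.89 CPM, with WTTR replicate 2 inside the WTSH range. lacZSH had 2.45, 2.42 and 2.20 CPM, and lacZTR had 2.66, 5.24 and 5.49 CPM, where all 3 traction scars were above all 3 sham scars and replicate 1 exceeded them only narrowly. The log2 difference under traction was -0.48 (SE 0.30, adjusted p = 0.299) in Tem1WT/WT and 0.92 (SE 0.31, adjusted p = 0.598) in Tem1lacZ/lacZ scars in edgeR. The interaction, which is the difference between these 2 effects, was 1.41 on the log2 scale (SE 0.43), with an unadjusted p of 0.00739 in edgeR and an adjusted p of 0.548. Of the 10 members, Cnr1 had the smallest unadjusted p in this interaction. The lacZTR level was above that of WTTR by a log2 difference of 1.08 (SE 0.31, adjusted p = 0.0952 in edgeR), with 1 lacZTR library inside the WTTR range.

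Trpv1, the channel gene of sensory nerve endings that is also transcribed in other skin cells, was the least abundant member per length. Its levels were 1.65, 1.15 and 1.93 CPM in WTSH, 0.738, 0.817 and 0.411 CPM in WTTR, 2.59, 2.97 and 2.38 CPM in lacZSH, and 1.82, 1.07 and 2.28 CPM in lacZTR. The 3 WTTR scars were the lowest of the 12 and the 3 lacZSH scars the highest. Trpv1 differed by -1.26 on the log2 scale under traction in Tem1WT/WT scars (SE 0.37, adjusted p = 0.0548 in edgeR) and by -0.62 in Tem1lacZ/lacZ scars (SE 0.36, adjusted p = 0.654). In traction scars it was higher in lacZTR than in WTTR by a log2 difference of 1.39 (SE 0.37, adjusted p = 0.0951 in edgeR), and the 2 groups did not overlap. The WTTR values rest on 31, 37 and 20 counts. The 6 neuron markers summed to 14.2 to 31.9 CPM in WTSH, 16.9 to 28.3 CPM in WTTR, 10.3 to 32.2 CPM in lacZSH and 16.9 to 27.5 CPM in lacZTR, ranges that overlapped in all 4 groups. Most of each sum was Tubb3, with group means of 20.1 to 21.9 CPM, and only 3 of the 6 markers passed the filter. These sums therefore describe mainly 1 gene and give no measure of sensory nerve endings.

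Of the synthesis genes, Napepld was lower under traction. It stood at 14.9, 10.9 and 9.94 CPM in WTSH, at 6.92, 8.15 and 5.51 CPM in WTTR, at 14.9, 11.5 and 10.4 CPM in lacZSH, and at 9.86, 9.23 and 9.07 CPM in lacZTR. All 3 WTTR scars were below the other 9 libraries. Traction lowered Napepld in Tem1WT/WT scars by a log2 difference of -0.80 (SE 0.22, adjusted p = 0.0464 in edgeR). In Tem1lacZ/lacZ scars the log2 difference was -0.39 (SE 0.22, adjusted p = 0.646 in edgeR), again without overlap, and the interaction was 0.41 (SE 0.31, adjusted p = 0.675 in edgeR). The call in Tem1WT/WT scars was kept only without WTTR replicate 2 or without lacZTR replicate 1, and leaving out any of the other 10 libraries gave an adjusted p of 0.0515 to 0.16 (0.0857 without WTTR replicate 1). The gene span of Napepld shares 635 bases with that of the pseudogene Gm15719 on the opposite strand.

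The diacylglycerol lipase genes behaved differently from Napepld. Daglb had 35.6, 21.5 and 31.3 CPM in WTSH, 15.1, 22.0 and 27.8 CPM in WTTR, 18.6, 12.6 and 20.3 CPM in lacZSH, and 13.9, 19.1 and 34.8 CPM in lacZTR. The 3 lacZSH scars were below all 3 WTSH scars, with a log2 difference of -0.78 (SE 0.35), an unadjusted p of 0.0477 and an adjusted p of 0.427 in edgeR. Under traction in Tem1WT/WT scars the log2 difference was -0.45, and -0.26 without WTTR replicate 1. WTTR and lacZTR overlapped across their whole range (log2 difference 0.06, SE 0.35). The gene span of Daglb shares 2309 bases with that of Rac1 on the opposite strand. If exons of both lie in that stretch and strand was not used, reads from there cannot be told apart. Dagla, the lower of the pair per length, ranged from 2.18 to 7.54 CPM, and no comparison separated its groups. Its gene span shares 2496 bases with that of the antisense gene AC132148.1. Its log2 differences were 0.32 (SE 0.34) under traction in Tem1WT/WT and 0.33 (SE 0.345) in Tem1lacZ/lacZ scars.

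Of the breakdown genes, Faah had the lowest adjusted p of the 10 members. Its levels were 39.5, 21.8 and 20.8 CPM in WTSH, 8.73, 15.9 and 9.41 CPM in WTTR, 38.8, 31.7 and 19.5 CPM in lacZSH, and 16.1, 21.9 and 18.4 CPM in lacZTR. All 3 WTTR scars were below the other 9 libraries, and in both sham groups replicate 1 was the highest. Traction lowered Faah in Tem1WT/WT scars by a log2 difference of -1.27 (SE 0.33, adjusted p = 0.0423 in edgeR). In Tem1lacZ/lacZ scars the log2 difference was -0.67 (SE 0.33, adjusted p = 0.622 in edgeR), and the groups overlapped. The difference between the 2 effects was 0.60 (SE 0.46, adjusted p = 0.685 in edgeR), so a smaller effect in Tem1lacZ/lacZ scars was not shown. The call in Tem1WT/WT scars was kept without lacZSH replicate 1, WTTR replicate 2 or lacZTR replicate 1, and leaving out any of the other 9 libraries gave an adjusted p of 0.0502 to 0.151 (0.0975 without WTTR replicate 1). The highest of these came without WTSH replicate 1, where the log2 difference was -0.92.

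Mgll, whose product also frees fatty acids from monoacylglycerols in fat cells, was not called in any comparison. It ranged from 180 to 222 CPM in WTSH, from 78.3 to 198 CPM in WTTR, from 158 to 242 CPM in lacZSH and from 135 to 249 CPM in lacZTR. The largest of its log2 differences between groups was -0.56 (SE 0.32, adjusted p = 0.257 in edgeR), under traction in Tem1WT/WT scars, and without WTTR replicate 1 it was -0.29. The gene span of Mgll overlaps those of 5 annotated genes that encode no known protein, 3 of them on the same strand. Whether its exons overlap theirs was not examined, so any effect on its level is not known. Abhd6 had 13.4, 13.4 and 14.7 CPM in WTSH, 7.57, 11.9 and 11.8 CPM in WTTR, 24.9, 26.3 and 20.6 CPM in lacZSH, and 28.8, 9.92 and 15.5 CPM in lacZTR. Sham scars of Tem1lacZ/lacZ mice were all above those of Tem1WT/WT mice, by a log2 difference of 0.79 (SE 0.32) with an unadjusted p of 0.0322 and an adjusted p of 0.409 in edgeR. The lacZTR scars were spread more widely than any other group of this gene, from the highest of the 12 libraries to the second lowest. Faah, Mgll and Abhd6 were each estimated lower under traction in both genotypes and higher in Tem1lacZ/lacZ than in Tem1WT/WT scars under both treatments, and of these 12 differences 1 was called.

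Promoter sequences of the 3 members that were lowest in all WTTR scars are shown, since Faah, Napepld and Trpv1 moved in the same direction. They are the 250 bases before the RefSeq start of the gene in GRCm38.p6, written 5′ to 3′ on the strand of the gene, and capitals mark motifs found in them.
Faah, chr4:116017925-116018174, minus strand: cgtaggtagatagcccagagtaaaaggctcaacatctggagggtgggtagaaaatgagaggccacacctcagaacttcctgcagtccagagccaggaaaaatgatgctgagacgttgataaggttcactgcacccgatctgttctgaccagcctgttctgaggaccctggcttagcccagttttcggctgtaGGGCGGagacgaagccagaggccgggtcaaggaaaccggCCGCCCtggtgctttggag
Napepld, chr5:21701623-21701872, minus strand: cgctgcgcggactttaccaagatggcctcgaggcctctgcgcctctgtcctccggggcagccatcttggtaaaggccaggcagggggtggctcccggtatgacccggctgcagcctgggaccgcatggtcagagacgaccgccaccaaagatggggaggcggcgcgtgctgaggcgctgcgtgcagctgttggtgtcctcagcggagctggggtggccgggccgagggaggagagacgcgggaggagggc
Trpv1, chr11:73233899-73234148, plus strand: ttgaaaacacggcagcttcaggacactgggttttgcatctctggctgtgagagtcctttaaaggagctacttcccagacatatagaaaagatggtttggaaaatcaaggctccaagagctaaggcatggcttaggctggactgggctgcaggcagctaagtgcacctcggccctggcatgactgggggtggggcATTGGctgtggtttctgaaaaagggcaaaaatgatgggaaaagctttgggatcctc
The motifs searched on both strands were the GC box (GGGCGG), the CCAAT box (CCAAT), the TATA box (TATAAA), the AP-1 site (TGANTCA), the E-box (CACGTG) and the nuclear receptor half-site (AGGTCA). Faah held a GC box on its own strand, 58 to 53 bases before the start, and another on the opposite strand, 19 to 14 bases before it. Trpv1 held a CCAAT box on the opposite strand, 56 to 52 bases before the start. Napepld held none of these letters in its window, although it was the richest of the 3 in G and C at 69.6%, against 55.6% for Faah and 50.8% for Trpv1. Over the 32851 RefSeq windows of this length, 32.7% held a GC box and 33.8% a CCAAT box, so neither is unusual. The genes span chr4:115967145-116017926 (Faah), chr5:21662901-21701396 (Napepld) and chr11:73234292-73261242 (Trpv1) in GENCODE vM21 on GRCm38, the build of the authors' alignment. These GENCODE starts differ from the RefSeq starts of the windows, and the windows of Napepld and Trpv1 do not adjoin the spans.

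**Figure D2:**
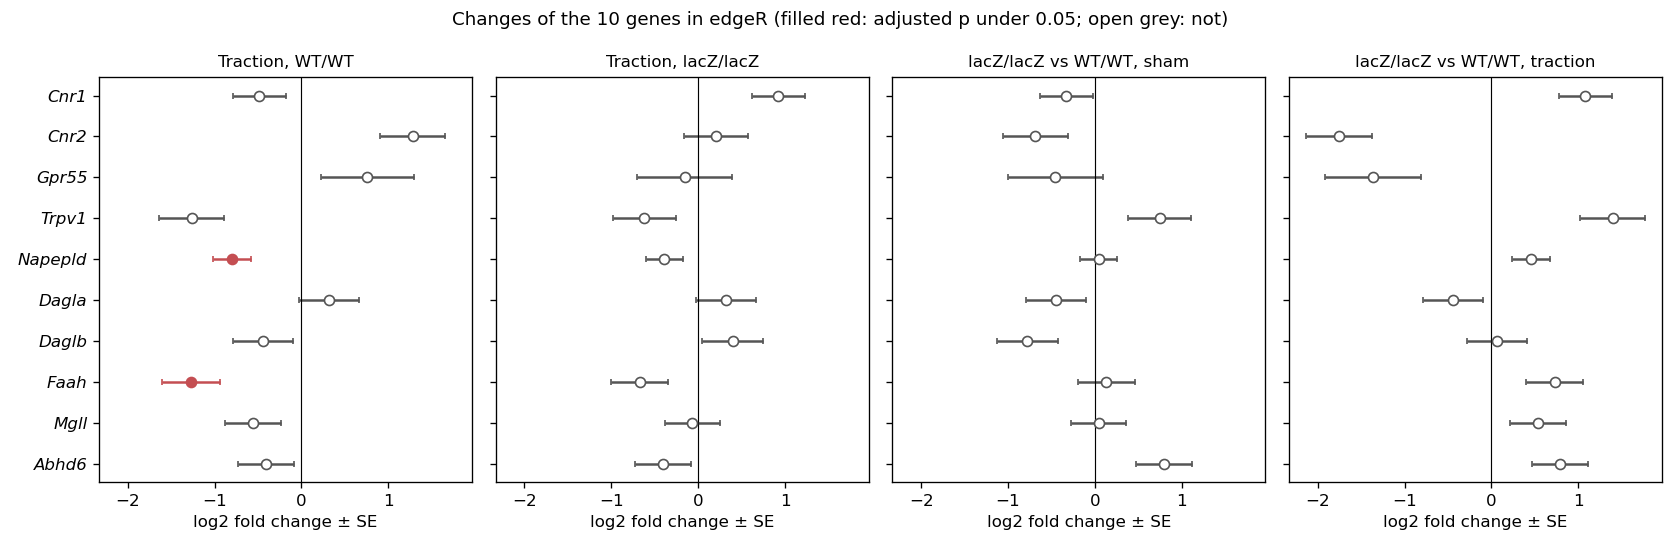
Log2 fold changes of the 10 genes with their standard errors (horizontal axes) in edgeR, in 4 comparisons of groups of 3 mice, with filled red points for an adjusted p under 0.05. Faah at -1.27 and Napepld at -0.80 under traction in Tem1WT/WT scars were the points called.

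Across the 10 members, the median log2 difference under traction in Tem1WT/WT scars was -0.46, against -0.01 over all genes tested. The groups did not overlap for 5 of 10 members, against 35.7% of all genes. Cnr2 was higher (17.7% of all genes did not overlap and were higher), and Trpv1, Napepld, Faah and Abhd6 were lower (18.0%). At an unadjusted p under 0.05 in edgeR, 1 member was higher (16.7% of all genes) and 3 were lower (14.7%), 4 of 10 against 31.4% of all genes. The study's authors tested with DESeq2. With that tool as an alternative 4 members were called, against 21.5% of all genes, adding Cnr2 (adjusted p = 0.00828) and Trpv1 (adjusted p = 0.0104) to Faah and Napepld. With limma-voom 0 members were called, against 3.97% of all genes. Without WTTR replicate 1 edgeR called 0 members, against 1.86% of all genes, and 4 had an unadjusted p under 0.05 (Cnr2, Trpv1, Napepld and Faah), against 26.9%.

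In Tem1lacZ/lacZ scars, 0 members were called under traction by edgeR, with 0% of all genes called. At an unadjusted p under 0.05 it was 1 member, Cnr1, which was higher, against 8.12% of all genes and 5.66% of all genes higher, and DESeq2 called 0 (0.122% of all genes) and limma-voom 1, again Cnr1 (2.31% of all genes). The groups did not overlap for 3 members, Cnr1 (higher), Trpv1 and Napepld (both lower), against 12.9% of all genes, 6.77% higher and 6.16% lower. The median log2 difference of the members was -0.11.

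The comparisons of genotype asked how the loss of Tem1 bears on these genes within each treatment. In sham scars 0 members were called by edgeR, DESeq2 and limma-voom, with 0.0106% of all genes called by edgeR, 0.143% by DESeq2 and 0.00530% by limma-voom, and 2 members (Daglb lower, Abhd6 higher) had an unadjusted p under 0.05, against 11.7% of all genes, 5.03% higher and 6.62% lower. For 5 members the sham groups did not overlap, against 26.8% of all genes. Cnr1, Cnr2 and Daglb were lower in lacZSH (13.8% of all genes) and Trpv1 and Abhd6 higher (13.0%). In traction scars edgeR also called 0 members, with 0.106% of all genes called, and limma-voom called 0, with 0.0849% of all genes. DESeq2 called 3, namely Cnr1 and Trpv1 (higher in lacZTR) and Cnr2 (lower), against 12.2% of all genes. At an unadjusted p under 0.05 in edgeR, 4 members were higher in lacZTR (Cnr1, Trpv1, Faah, Abhd6) and 2 lower (Cnr2, Gpr55), 6 of 10 against 26.1% of all genes, 11.1% higher and 15.1% lower. Without WTTR replicate 1 there were 3 (Cnr1, Cnr2 and Trpv1), against 20.4% of all genes. The groups did not overlap for 4 members, Cnr2 (lower), Trpv1, Napepld and Faah (higher), against 26.6% of all genes, 12.9% higher and 13.7% lower. Without WTTR replicate 2, Cnr1 (1.33, adjusted p = 0.0434) and Cnr2 (-1.84, adjusted p = 0.0347) were called by edgeR. This comparison and that of traction in Tem1WT/WT scars share the WTTR libraries, so values of opposite sign in them are not independent of each other.

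The interaction of genotype and traction was called for 0 members by edgeR, DESeq2 and limma-voom, with 0% of all genes called by edgeR, 0.366% by DESeq2 and 0% by limma-voom. Cnr1 was the single member with an unadjusted p under 0.05, with a value above 0, against 8.91% of all genes and 4.46% above 0. Averaged over both genotypes, traction lowered 3 members, Faah by a log2 difference of -0.97 (SE 0.23, adjusted p = 0.0342 in edgeR), Napepld by -0.59 (SE 0.15, adjusted p = 0.0401) and Trpv1 by -0.94 (SE 0.26, adjusted p = 0.0458). These were 3 of 10 members, against 9.73% of all genes called and 3.23% called lower. With the replicate number as a block, the call of Trpv1 was lost (adjusted p = 0.0647 in edgeR). When each of the 12 libraries was left out in turn, Faah was called in 4 of the 12 fits, Napepld in 3 and Trpv1 in 1, which was the fit without WTTR replicate 2. Without WTTR replicate 1 none of the 3 was called. Adjusted p-values in the fits that lost the call were 0.051 to 0.0876 for Faah, 0.0546 to 0.0973 for Napepld and 0.0507 to 0.109 for Trpv1.

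Markers of the sebaceous gland and of other cell types differed with traction beside the members that were lower. The 5 sebaceous genes (Awat1, Awat2, Elovl3, Mc5r and Dgat2l6) summed to 166 to 180 CPM in WTSH, 48.8 to 133 CPM in WTTR, 220 to 360 CPM in lacZSH and 136 to 181 CPM in lacZTR, and none was at 0 in any library. In Tem1WT/WT scars 3 of the 5 were called lower under traction, and 4 of 5 in the effect averaged over genotypes, against 0 and 2 without WTTR replicate 1. Within groups the match with the members was uneven. WTTR replicate 2, with the highest sebaceous sum of its group at 133 CPM, also had the highest Faah, Napepld and Trpv1 of its group. In lacZTR, replicate 1 had the highest sum at 181 CPM. It had the highest Napepld and the lowest Faah of its group, with Trpv1 between those of the other libraries. In WTSH and lacZSH the highest sums, 180 and 360 CPM, were those of replicate 2, while Faah and Napepld were highest in replicate 1. Trpv1 was highest in replicate 3 of WTSH and in replicate 2 of lacZSH. The sums of lacZSH were also above those of WTSH. Between these groups the log2 differences of Faah (0.13) and Napepld (0.045) were small, and that of Trpv1 was 0.75, without overlap. Over the 12 libraries, which share the 4 groups, the Pearson r with the sebaceous sum was 0.83 for Faah, 0.8 for Napepld and 0.86 for Trpv1. The Spearman rho was 0.66, 0.86 and 0.87. With the endothelial sum r was -0.78, -0.83 and -0.8 and rho -0.67, -0.83 and -0.73, as a description. With the neutrophil sum r was -0.75, -0.63 and -0.44 and rho -0.81, -0.79 and -0.53. For Faah this was the strongest rho of the 14 lists. Hair follicle markers (6 genes) summed to 7368 to 14371 CPM in WTSH and 2314 to 3960 CPM in WTTR, and 1 of 6 was called lower, or 0 without WTTR replicate 1. Skeletal muscle markers (6 genes) summed to 710 to 9073 CPM in WTSH and 189 to 1422 CPM in WTTR, with a median log2 difference of -2.83. Of these, 0 were called while 6 of 6 were lower at an unadjusted p under 0.05 in edgeR. Without WTTR replicate 1 the median was -4.22 and 2 were called lower. Over the 12 libraries, Faah, Napepld and Trpv1 had an r of 0.52, 0.69 and 0.43 with the muscle sum (rho 0.49, 0.63 and 0.24). Endothelial markers (5 genes) went the other way, from 242 to 385 CPM in WTSH to 739 to 820 CPM in WTTR, with 4 of 5 called higher, or 2 without WTTR replicate 1. The part of these cell types in the levels of Faah, Napepld and Trpv1 was not tested.

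**Figure D3:**
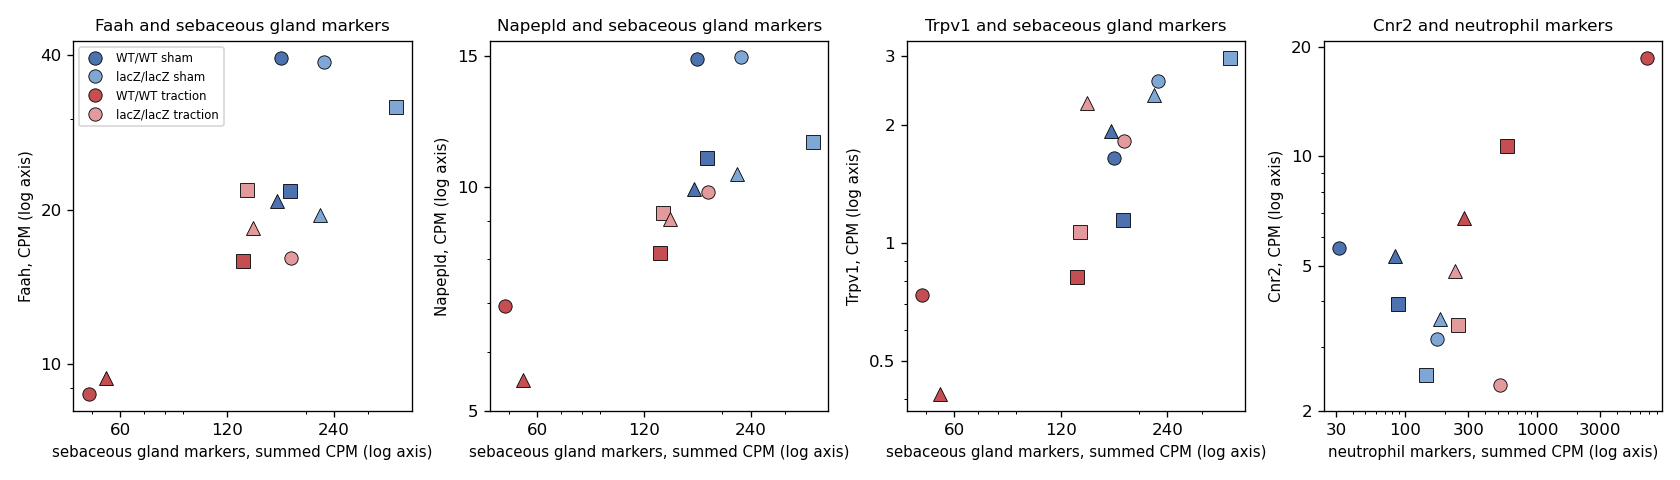
Levels of Faah, Napepld, Trpv1 and Cnr2 (vertical, CPM, log axes) against summed marker genes of the sebaceous gland or of neutrophils (horizontal, CPM, log axes) in the 12 scars, with circle, square and triangle for replicates 1, 2 and 3. The sebaceous sums of 48.8 and 54.7 CPM belong to WTTR replicates 1 and 3, which were low in all 3 lower genes, and the neutrophil sum of 6722 CPM to WTTR replicate 1.

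Faah and Napepld, the gene of breakdown and the gene of synthesis of one lipid, varied together over the 12 libraries (Pearson r = 0.95 and Spearman rho = 0.9 on log2 CPM, as a description over libraries that share the 4 groups). The ratio of Faah CPM to Napepld CPM was 1.99 to 2.66 in WTSH, 1.26 to 1.95 in WTTR, 1.87 to 2.75 in lacZSH and 1.64 to 2.37 in lacZTR. WTTR was the lower in all 3 libraries against WTSH, although the nearest libraries of the 2 groups differed by less than the spread within either. Dagla and Daglb, both of 2-arachidonoylglycerol synthesis, had an r of 0.77 over the same 12 libraries, and Cnr1 and Cnr2 one of -0.33. Among 13645 genes at or above a mean log2 CPM of 1, the pattern nearest to Faah over the 12 libraries was that of Egr2 (r = 0.986), then Sec14l4 (0.973) and Pxmp4 (0.972). Egr2 was also nearest to Napepld (r = 0.969), before Epcam (0.95) and AA986860 (0.949). For Mgll the 3 nearest were Fa2h (0.959), Gm39743 (0.939) and Shpk (0.934), and for Abhd6 they were Pla2g2f (0.98), Sh3bgrl2 (0.972) and Fbxo8 (0.968). These correlations take in the differences between the groups and were chosen as the highest of many.

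The other genes of the pathway were 27, of which 24 were tested. Traction in Tem1WT/WT scars raised 3 of the 24 and lowered 1 by edgeR, against 9.15% of all genes called, 5.61% higher and 3.54% lower. Ptgs2 encodes cyclooxygenase-2, which makes prostaglandins and also oxidizes endocannabinoids. It stood at 5.88, 4.67 and 14.9 CPM in WTSH, at 686, 50.0 and 34.6 CPM in WTTR, at 7.16, 7.40 and 11.5 CPM in lacZSH, and at 7.66, 2.42 and 13.0 CPM in lacZTR. All 3 WTTR scars were above every other library, and replicate 1 was far above the other two. The log2 difference was 4.92 (SE 1.16, adjusted p = 0.0349 in edgeR) and 2.30 without WTTR replicate 1 (adjusted p = 0.0641). Trpv2 and Ppard, a cation channel and a nuclear receptor for fatty acids, rose by log2 differences of 1.24 (SE 0.31, adjusted p = 0.039 in edgeR) and 1.27 (SE 0.33, adjusted p = 0.0412). Without WTTR replicate 1 these were 0.67 (adjusted p = 0.0728) for Trpv2 and 0.65 (adjusted p = 0.0747) for Ppard.

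Trpv3, a warmth-gated channel gene of keratinocytes that lies next to Trpv1 on chromosome 11, fell. Its levels were 32.1, 31.8 and 20.8 CPM in WTSH, 15.6, 12.2 and 8.03 CPM in WTTR, 33.3, 42.3 and 30.4 CPM in lacZSH, and 26.7, 23.4 and 15.2 CPM in lacZTR. WTTR and WTSH did not overlap, nor did lacZTR and lacZSH. The log2 difference was -1.24 (SE 0.29, adjusted p = 0.0332 in edgeR) in Tem1WT/WT and -0.70 (SE 0.28, adjusted p = 0.598) in Tem1lacZ/lacZ scars. Trpv3 was called in 8 of the 12 fits that each left out 1 library, and without WTTR replicate 1 the adjusted p was 0.0441. Fabp3, a fatty acid-binding protein that carries anandamide inside cells, had a log2 difference of -2.25 (SE 0.645, adjusted p = 0.0523 in edgeR). It was at 2.05 to 2.47 CPM in WTTR and at 21.6, 7.15 and 4.08 CPM in WTSH replicates 1, 2 and 3. Without WTSH replicate 1 its log2 difference was -1.3. The skeletal muscle sum had the order of Fabp3 within WTSH (9073, 2600 and 710 CPM) and lacZSH, and another order within WTTR and lacZTR. The part of muscle in the level of Fabp3 was not tested. Among the pathway genes whose mean log2 CPM was 0 or higher, the largest log2 differences between lacZTR and WTTR were -5.06 for Ptgs2 (SE 1.165, adjusted p = 0.0885 in edgeR), 1.40 for Fabp3 (SE 0.63, adjusted p = 0.189) and -1.19 for Trpv2 (SE 0.31, adjusted p = 0.0951). Without WTTR replicate 1 these were -2.43 for Ptgs2 (adjusted p = 0.168 in edgeR), 1.35 for Fabp3 (adjusted p = 0.31) and -0.60 for Trpv2 (adjusted p = 0.185). Of the 24 genes, 0 were called by edgeR in the comparisons of genotype, in traction of Tem1lacZ/lacZ scars or in the interaction. Averaged over genotypes, traction raised 1, Ppard (0.81, adjusted p = 0.049 in edgeR), and lowered 1, Trpv3 (-0.97, adjusted p = 0.0255). The share of all genes called there was 9.73%, and 3.23% called lower. When each library was left out, Trpv3 was called in 7 of 12 fits and Ppard in 3. Both were called without WTTR replicate 1, where Ppard was at 0.52. At an unadjusted p under 0.05 there was 1 of 24 between genotypes in sham, against 11.7% of all genes, and 7 of 24 in traction, against 26.1%, or 6 of 24 and 20.4% without WTTR replicate 1. There was 1 of 24 under traction in Tem1lacZ/lacZ scars, against 8.12% of all genes, and 3 of 24 in the interaction, against 8.91%.

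**Figure D4:**
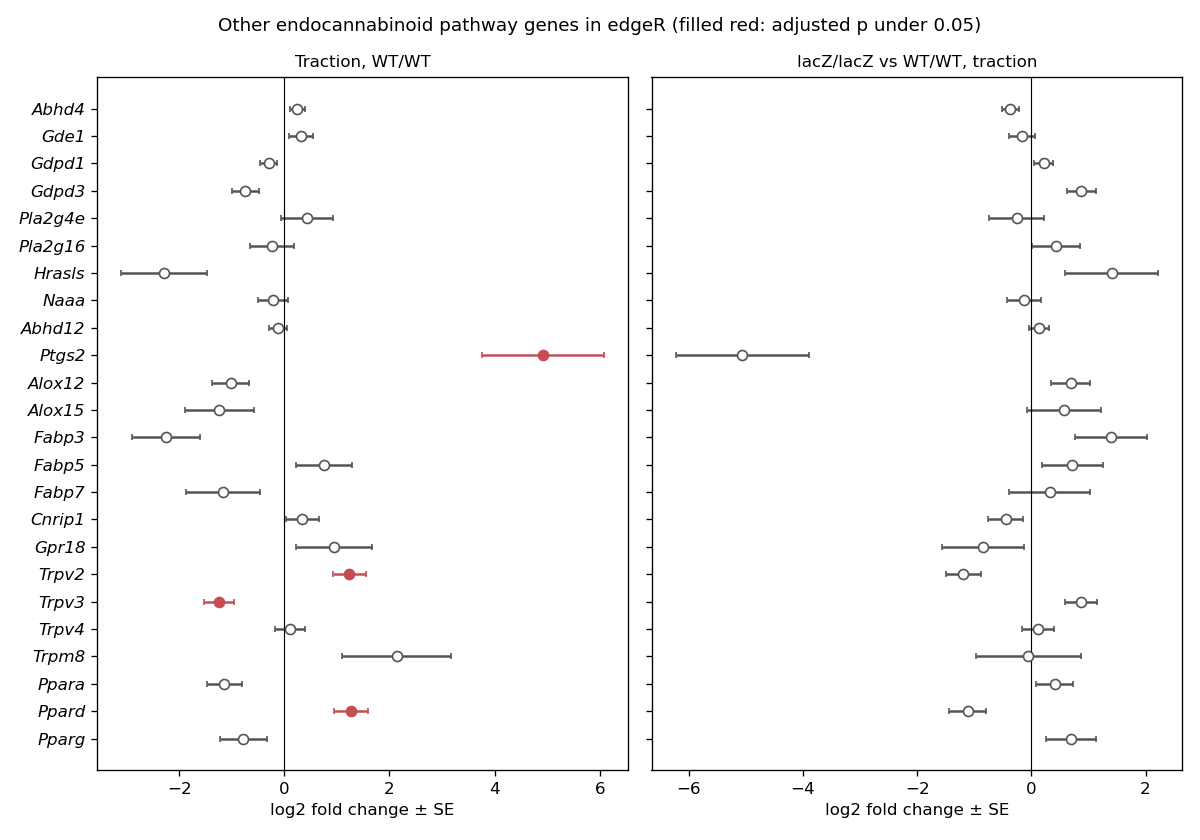
Log2 fold changes with standard errors (horizontal axes) of the 24 other pathway genes tested, in edgeR, for traction in Tem1WT/WT scars and for Tem1lacZ/lacZ against Tem1WT/WT traction scars, with filled red points for an adjusted p under 0.05. Ptgs2 (4.92), Trpv2 (1.24) and Ppard (1.27) were called higher and Trpv3 (-1.24) lower under traction, and 0 were called between genotypes.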

How the data were processed

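The authors prepared stranded poly(A) libraries, trimmed reads with fastp 0.20.0, aligned them to GRCm38 with HISAT2 2.1.0 and counted reads on genes with featureCounts 2.0.0. Neither the annotation nor the strand setting nor the use of multi-mapping reads is given in the sources used here. The authors deposited raw counts per gene for each of the 12 libraries, without normalization. No 2 libraries of a group were copies of each other.

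Counts were filtered with filterByExpr by group, scaled by TMM and modelled in edgeR 4.0.16 (R 4.3.3) by its robust quasi-likelihood method, with all 4 groups in one model (8 residual degrees of freedom). Two-sided p-values were adjusted by Benjamini-Hochberg over the 18853 genes tested. The code was tested on simulated data. Coordinates and exon lengths came from GENCODE vM21, and promoters from RefSeq. Log2 CPM for correlations used a prior count of 2. Levels of 14 lists of cell type markers were summed.

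The members, the lists and the tests were chosen with earlier results of these data known. All members were named. Other pathway genes were named where called in any comparison, or among the 3 with the largest absolute log2 fold change under traction in Tem1WT/WT scars or between genotypes in traction, at a mean log2 CPM of at least 0. Nearest patterns were given for the 4 members most abundant per length. The edgeR p-values measure the spread between mice within groups, pooled over all 4 groups of 3 mice and shared across genes. They do not rest on the compared groups alone. Alternatives were DESeq2 1.42.0, limma-voom (limma 3.58.1) with sample weights, 2 other scalings, all genes with a count, a replicate block, fits of the compared groups alone and fits without each library in turn. Figures were drawn with matplotlib 3.10.9 in Python 3.11.15.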

Additional observations from a re-analysis of the deposited data

How the results depend on the processing

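Calls among the 10 genes depended on the test. Under traction in Tem1WT/WT scars, 2 were called (1725 of all genes), against 1 without the filter on low counts (Faah; 1011 genes), 4 by DESeq2 (4047 genes), 0 by limma-voom (748 genes) and 0 when the compared groups were fitted alone, where 0 of all genes were called and 4876 had an unadjusted p under 0.05. When each library was left out in turn, 0 to 3 were called. In Tem1lacZ/lacZ scars limma-voom called 1 (435 genes). Between genotypes in traction, DESeq2 called 3 (2309 genes) and the fits without 1 library 0 to 2. Averaged over genotypes, 3 were called, against 1 without the filter (1198 genes) and 0 to 4 in the fits without 1 library. In sham scars and in the interaction, 0 were called under every alternative run. The cause was not tested. Upper-quartile scaling moved the median of all genes under traction in Tem1WT/WT scars to -0.12, with 734 of 1673 calls higher against 1057 of 1725, and Faah (-1.38), Napepld (-0.91) and Trpv1 (-1.38) were called lower.

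Labels share replicate numbers, and the main model did not take them as pairs. Deviations of same-numbered libraries correlated at -0.32 to 0.25, which alone does not show that the numbers carry nothing. With the replicate block, 2 genes were called under traction in Tem1WT/WT scars and 2 averaged over genotypes, where Trpv1 was lost. A library's best match in another group had its own number in 25 of 36 cases, where 12 would be expected if the numbers carried nothing. The labels do not say what the numbers stand for, and whether they mark pairs or a batch was not tested.

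Some log2 differences changed sign, most of them near 0. The exceptions were Gpr55 under traction in Tem1WT/WT scars (0.76, and -0.35 without WTTR replicate 1), its interaction (-0.91, and 0.23 without the same library) and Daglb under traction in Tem1lacZ/lacZ scars (0.40, and -0.06 without lacZTR replicate 3). By limma-voom these were Mgll under traction in Tem1lacZ/lacZ scars (0.25) and between genotypes in sham (-0.08), and Gpr55 (-0.1) and Daglb (0.1) in traction averaged over genotypes. The interaction of Abhd6 became 0.07 with upper-quartile scaling and 0.04 without the filter. In the fits without 1 library, values on both sides of 0 were seen for Gpr55 under traction in Tem1WT/WT scars (-0.35 to 1.19). In Tem1lacZ/lacZ scars they were seen for Cnr2 (-0.09 to 0.47), Gpr55 (-0.3 to 0.01), Daglb (-0.06 to 0.69) and Mgll (-0.28 to 0.19). Between genotypes they were Napepld (-0.14 to 0.23), Faah (-0.12 to 0.49) and Mgll (-0.1 to 0.19) in sham and Daglb (-0.39 to 0.36) in traction. Interactions of this kind were Gpr55 (-1.32 to 0.23), Dagla (-0.28 to 0.29) and Abhd6 (-0.45 to 0.28), and effects averaged over genotypes were Gpr55 (-0.24 to 0.54) and Daglb (-0.25 to 0.12). None of these was called.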
